A study of Schizosaccharomyces pombe with 4 samples.

Results

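The genes of alcohol fermentation and of glucose phosphorylation in fission yeast (Schizosaccharomyces pombe) were examined for chromatin association of the RNA helicase Upf1. The set was fixed by gene identifier and not by any measured value, but with earlier results of these data known. It names 6 genes: the alcohol dehydrogenase genes adh1 (SPCC13B11.01) and adh4 (SPAC5H10.06c), the pyruvate decarboxylase genes pdc101 (SPAC1F8.07c) and pdc202 (SPAC13A11.06), and the hexokinase genes hxk1 (SPAC24H6.04) and hxk2 (SPAC4F8.07c). Of these, 5 were among the 4888 genes with values, and pdc202 was not analysed here. The gene adh1 lies on chromosome III and the other listed genes lie on chromosome I.

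The data come from chromatin immunoprecipitation (ChIP) of HA-tagged Upf1 hybridised to Affymetrix tiling arrays. The 4 arrays are an immunoprecipitate (IP) of an asynchronous culture, an IP of an S-phase culture, and 2 inputs of untreated cells shared by both IPs. Cells were grown in YES, a rich medium. Synchrony came from the cdc25-22 mutation, which blocks entry into mitosis at high temperature: a block of 3.5 h at 37 °C was followed by 60 min at 25 °C before fixation. The study's strain list gives the Upf1-HA cdc25-22 strain with upf1-3HA::kanMX6 and with auxotrophic marker alleles of ade6, leu1 and ura4. The strain of the asynchronous culture is not given in the sources used here. Both IPs were divided by inputs from untreated cells, and the labels of the IP arrays carry numbers that read as dates in different years. Strain, heat arrest, cell cycle stage, date and array therefore cannot be told apart between the cultures.

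Fission yeast ferments glucose to ethanol even when oxygen is present. Hexokinases trap glucose or fructose in the cell as the sugar phosphate that enters glycolysis. At the other end of the route, pyruvate decarboxylase splits pyruvate into acetaldehyde and CO2, and alcohol dehydrogenase reduces acetaldehyde to ethanol with NADH, which returns the NAD+ that glycolysis needs. Adh1 is the main ethanol-forming enzyme and depends on zinc. In cells short of zinc a long antisense RNA, adh1AS, is made across adh1 and lowers its expression, while adh4, which the zinc-responsive repressor Loz1 keeps low in zinc-replete cells, is switched on. Upf1 is an RNA-dependent helicase known best for its role in nonsense-mediated mRNA decay.

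The genes of each step are not equally close in sequence. The Adh1 and Adh4 proteins, translated from the RefSeq coding sequences of assembly ASM294v3, were identical at 22.6% of aligned residues, and a nucleotide search found no similarity between their coding sequences. They carry out the same reaction, but Adh4 resembles the Adh4 of budding yeast, which belongs to a separate family of enzymes. Hxk1 and Hxk2 shared 36.7% of 441 aligned residues. Pdc101 was closest to Pdc102 (57.7% of 567 residues) and more distant from Pdc202 (32.5% of 547 residues). The nucleotide search found no similarity between hxk1 and hxk2 or between pdc101 and pdc202 either. None of the 25-base windows in the 5 listed genes, the length of the array probes, occurred exactly anywhere else in the genome, so no probe of that length within them matches another locus exactly.

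All values set IP over input against the median gene of the same column, since the IP arrays were not brought to the scale of the input arrays. That median gene had a ratio of 0.774 in asynchronous cells and of 0.195 in S phase. Each culture has a single IP array, which leaves no replicate error and allows no test. In its place, a spread between arrays was taken from the difference between the cultures across the 1784 protein-coding genes whose length lay between those of the shortest and the longest gene of the set (1503 and 2578 bp). It was 0.22 on the log2 scale for a value and 0.30 for a difference between 2 genes on the same array, and it includes any true difference between the cultures. It is a standard deviation in which the shared inputs cancel. It therefore leaves out the error of the inputs, which the values of each gene and the differences between genes still hold. The Ser5 Pol II ratio (RNA polymerase II phosphorylated on Ser5) and the RNA level in FPKM (fragments per kilobase, scaled to library size) are the authors' means over published data and have no error here.

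The gene adh1 carried the most Upf1 of the set in both cultures. Its ratio was 1.67 in asynchronous cells, or 2.16-fold the median gene, which ranked 13th of the 4888 genes. In S phase its ratio was 0.753, or 3.86-fold the median gene, which ranked 2nd. Its Pol II ratio was 1.51, 2.76-fold the median gene, and its RNA level was 843 FPKM. The place of adh1 was thus higher for Upf1 than for either measure of expression, in which it ranked 146th and 125th.

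The pyruvate decarboxylase gene pdc101 came next in both Upf1 columns. Its ratio was 1.37 in asynchronous cells (1.77-fold the median gene) and 0.496 in S phase (2.54-fold). Its Pol II ratio of 1.497 was 2.74-fold the median gene, nearly the value of adh1. Its RNA level was 2507 FPKM, the highest of the set and 2.97-fold that of adh1. On the log2 scale the Upf1 ratio of pdc101 was nevertheless below that of adh1, by 0.29 in asynchronous cells and by 0.60 in S phase. The former difference is smaller than the spread of 0.30 between arrays and the latter is larger.

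The hexokinase genes stood lower. The ratio of hxk2 was 1.08 in asynchronous cells and 0.369 in S phase, or 1.40-fold and 1.89-fold the median gene, with a Pol II ratio 2.19-fold the median gene and an RNA level of 352 FPKM. The ratio of hxk1 was 0.900 in asynchronous cells and 0.227 in S phase. Both values of hxk1 were 1.16-fold the median gene, and its S-phase ratio was the smallest of the set. Its Pol II ratio was 0.666, 1.22-fold the median gene, although its RNA level of 181 FPKM was well above the median of 41.0 FPKM.

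The gene adh4 was near the median gene in asynchronous cells and well above it in S phase. Its ratio was 0.868 in asynchronous cells, or 1.12-fold the median gene, which ranked 1448th. In S phase its ratio was 0.374, or 1.92-fold the median gene, which ranked 165th. Its Pol II ratio was 0.650 (1.19-fold the median gene) and its RNA level was 58.5 FPKM, the lowest of the set. In the S-phase culture adh4 therefore stood level with hxk2, at a log2 difference of 0.018, although hxk2 had more RNA (352 against 58.5 FPKM) and a higher Pol II ratio.

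**Figure D1:**
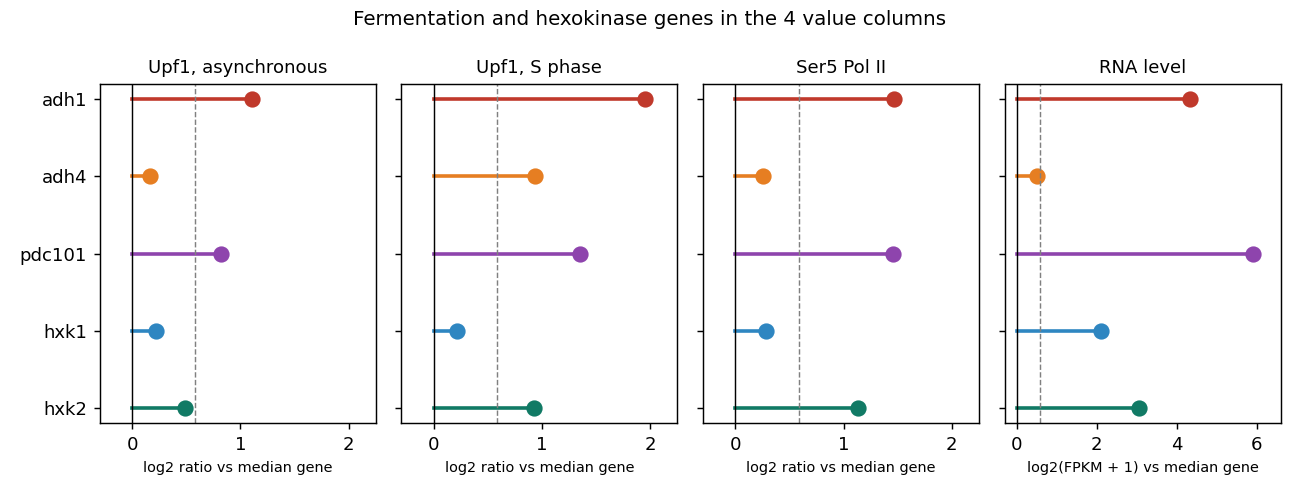
Values of the 5 listed genes in the 4 value columns, as log2 relative to the median gene (solid line at 0; the dashed line marks 1.5-fold; each point is a single value with no error). All 5 genes lie above the median gene in every column, adh1 is highest in both Upf1 columns, and adh4 passes 1.5-fold only in the S-phase column.

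At a threshold of 1.5-fold above the median gene, 2 of the 5 genes (adh1 and pdc101) passed in asynchronous cells, where 5.14% of all genes did. In S phase 4 of the 5 passed (adh1, pdc101, adh4 and hxk2), against 11.2% of all genes. For Pol II 3 of the 5 passed (adh1, pdc101 and hxk2), against 16.0% of all genes, and for the RNA level 4 of the 5 passed, all but adh4, against 34.0%. No gene of the set lay 1.5-fold below the median in any of these columns, where 3.36% of all genes did for asynchronous Upf1, 7.96% for S-phase Upf1, 12.4% for Pol II and 33.1% for RNA. The median log2 value of the 5 genes was 0.48 in asynchronous cells and 0.94 in S phase, against 0 for all genes by construction. Fewer genes passed once the trend of Upf1 with GC content was removed, at 0 of 5 in asynchronous cells, where 3.24% of all genes did, and 2 of 5 in S phase, where 8.2% did.

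The question put to each pair was whether the gene of higher expression also carries more Upf1. For the alcohol dehydrogenases it did. The RNA level of adh1 was 14.4-fold that of adh4 and its Pol II ratio 2.32-fold, while its Upf1 ratio was 1.93-fold higher in asynchronous cells and 2.01-fold higher in S phase. On the log2 scale the Upf1 differences were 0.95 and 1.01, which are 3.11 and 3.32 times the spread for a difference between genes. The difference between the pair was thus alike in both cultures, which share the same inputs. With the GC trend removed it was 0.48 and 0.42 for Upf1, and 0.073 on the log2 scale for Pol II.

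For the hexokinases the gene of higher expression, hxk2, had the higher Upf1 ratio in both cultures, but by less than the spread in one of them. The RNA level of hxk2 was 1.95-fold that of hxk1 and its Pol II ratio 1.80-fold. In the asynchronous culture the Upf1 ratio of hxk2 was 1.204-fold that of hxk1, a log2 difference of 0.27 that is smaller than the spread. In S phase it was 1.63-fold that of hxk1, a log2 difference of 0.70, which is 2.32 times the spread, or 0.50 with the S-phase values scaled to the range of the asynchronous ones. Between the cultures hxk2 moved from 0.48 to 0.92 and hxk1 was at 0.22 in both. The difference of 0.44 between these changes has no test. A pair of pyruvate decarboxylase genes could not be compared, since pdc202, pdc102 and pdc201 were not analysed here.

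The order of the 5 genes was then set beside that of Pol II and RNA. In the asynchronous culture the order from high to low was adh1, pdc101, hxk2, hxk1 and adh4, which is the order of the Pol II ratio. In log2 Pol II adh1 led pdc101 by only 0.013 and hxk1 led adh4 by only 0.036. Of the Upf1 gaps between neighbours in the asynchronous order only that between pdc101 and hxk2 (0.34) exceeded the spread of 0.30. In S phase adh4 moved up to the third place, and the gaps on either side of pdc101 (0.60 and 0.41) and that between hxk2 and hxk1 (0.70) exceeded the spread. The order by RNA level differed from both in having pdc101 before adh1. With the GC trend removed the Pol II order changed, with hxk2 first at 0.53. The others were then at −0.021 (adh1), −0.055 (hxk1), −0.069 (pdc101) and −0.094 (adh4).

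Dividing the S-phase by the asynchronous ratio removes the shared inputs. After centring, adh1 was 1.78-fold higher in S phase, which ranked 62nd, and adh4 was 1.70-fold higher, which ranked 79th. These were the 2 genes of the set past 1.5-fold, against 3.78% of all genes. The ratio of pdc101 was 1.43-fold higher in S phase and that of hxk2 was 1.35-fold higher. That of hxk1 was 0.995-fold, close to the median gene. None was 1.5-fold lower, against 4.03% of all genes.

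The S-phase column has a wider range. The standard deviation of the log2 ratio over all genes was 0.48 in S phase and 0.34 in asynchronous cells. With the S-phase range narrowed to the asynchronous one, no gene of the set passed 1.5-fold between cultures, where 1.82% of all genes were higher. The log2 difference between cultures then fell from 0.83 to 0.27 for adh1, from 0.52 to 0.13 for pdc101 and from 0.43 to 0.17 for hxk2. That of adh4 fell less, from 0.77 to 0.50, so adh4 and not adh1 had the largest difference of the set on this scale.

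Upf1 was then set against Ser5 Pol II at the same gene. As a difference of centred log2 values, all 5 genes lay below 0 in asynchronous cells, with pdc101 (−0.63) and hxk2 (−0.65) more than 1.5-fold low, adh1 at −0.36, adh4 at −0.086 and hxk1 at −0.069. Over all genes 11.8% were 1.5-fold low by this measure. Near the middle of all genes were adh4 and hxk1, with 55.1% and 53.4% of genes higher. In S phase adh4 was 1.61-fold high (0.69), where 9.90% of genes were, adh1 was at 0.48, and pdc101, hxk2 and hxk1 were at −0.11, −0.21 and −0.069. None was 1.5-fold high in asynchronous cells, where 9.43% of genes were, or 1.5-fold low in S phase, where 10.4% were. Over all genes the standard deviation was 0.65 for Pol II, wider than in both Upf1 columns, and the negative values turned positive when Upf1 was measured from its trend on Pol II.

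Measured from the trend of Upf1 on Pol II over all genes, all 5 genes lay above the trend in both cultures. Some did so by little: 34.6% of the genes fitted lay farther above it than hxk2 in asynchronous cells, and 35.8% than hxk1 in S phase. The distances in asynchronous cells were 0.59 for adh1, 0.30 for pdc101, 0.14 for hxk1, 0.11 for adh4 and 0.083 for hxk2. In S phase adh1 lay 1.15 above the trend, which ranked 14th. The next was adh4 at 0.85, ranked 71st, then pdc101 at 0.56, hxk2 at 0.28 and hxk1 at 0.11. Both alcohol dehydrogenase genes thus lay farther above the trend in S phase than the other genes of the set. The gap between adh4 and pdc101 is smaller than the spread of 0.30 for a difference between 2 genes. No S-phase Pol II value was used here, and whether it differed at adh4 in that culture was not tested.

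**Figure D2:**
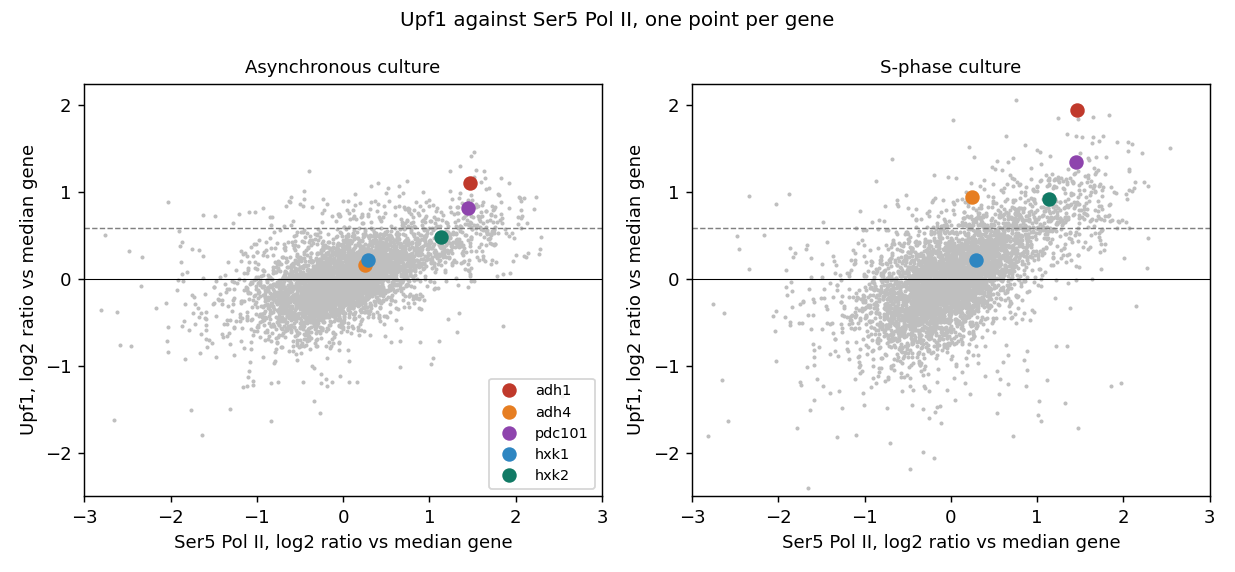
Upf1 against Ser5 Pol II, both as log2 ratios relative to the median gene, with 1 point per gene (grey) and the 5 listed genes in colour; the dashed line marks 1.5-fold for Upf1 and 4 genes lie outside the Pol II axis. In S phase adh1 (1.95) and adh4 (0.94) lie in the upper part of the cloud, at log2 Pol II ratios of 1.47 and 0.25. By distance above the Pol II trend they ranked 14th and 71st. The gene hxk1 lies nearer the middle of the cloud in both panels.

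The set shares a base composition above that of most genes. The median GC content of a gene was 36.8%. It was 48.1% in pdc101 and 47.9% in adh1, which ranked 13th and 18th of all genes. The others were less extreme, at 42.1% in hxk2, 40.3% in adh4 and 40.2% in hxk1. Across all genes GC content ran with Upf1, with a Spearman's rho of 0.545 in asynchronous cells and 0.499 in S phase, and with Pol II (0.404). These are descriptions across genes, which share arrays and are not independent replicates.

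Removal of the GC trend lowered the Upf1 values of all 5 genes. In the asynchronous culture none then passed 1.5-fold, with adh1 at 0.43 and pdc101 at 0.13 on the log2 scale. In S phase adh1 (1.07) and adh4 (0.65) still passed, while pdc101 (0.45) and hxk2 (0.47) did not. The trend at the GC content of adh1 is drawn from few genes, since only 18 genes had at least that GC content, adh1 included. The median Upf1 of those 18 was 0.77 in asynchronous cells and 1.07 in S phase, below the 1.11 and 1.95 of adh1. The part of GC content in the values of adh1 and pdc101 was not tested further.

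**Figure D3:**
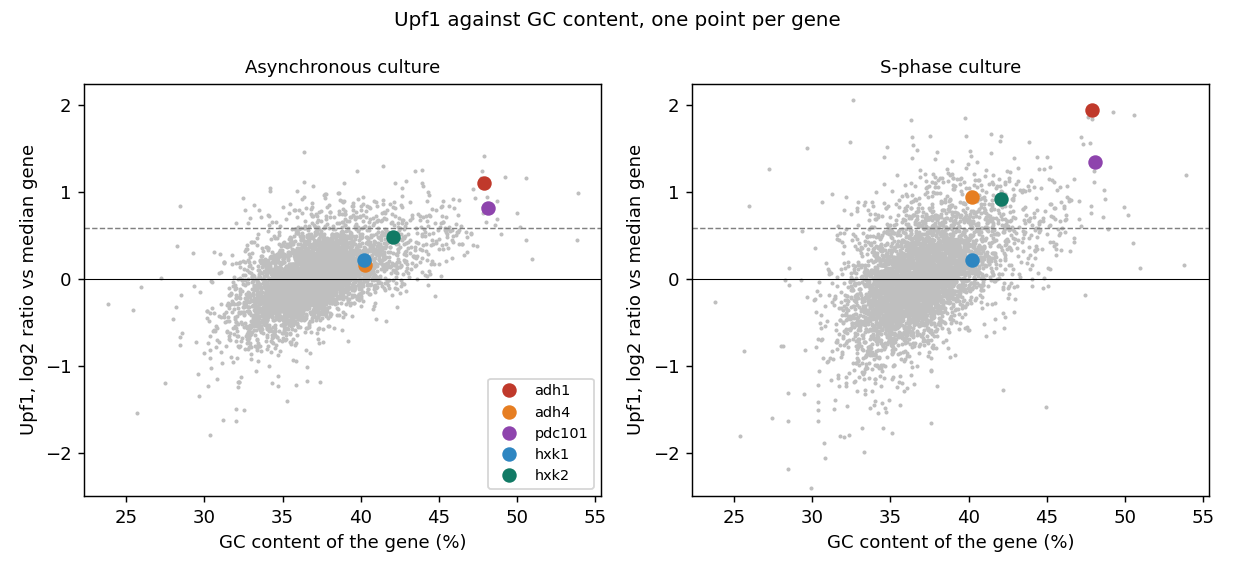
Upf1 (log2 ratio relative to the median gene) against the GC content of the gene in percent, with 1 point per gene (grey) and the 5 listed genes in colour; the dashed line marks 1.5-fold. The genes adh1 and pdc101 sit at the GC-rich end, at 47.9% and 48.1%, where few genes lie.

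Other features of the genes were less alike. Gene lengths ran from 1503 bp for adh4 to 2578 bp for hxk1, against a median of 1804 bp over all genes. The coding sequence of pdc101 lies in 2 exons and the other listed genes have a single exon. Every gene of the set overlaps at least 1 annotated long non-coding RNA. The antisense RNA adh1AS covers 100% of adh1, and non-coding RNAs cover 82.6% of adh4, 90.8% of hxk1, 47.3% of hxk2 and 34.0% of pdc101. None of these RNAs was itself listed. Arrays of double-stranded DNA do not keep the strand, so signal at adh1 and at adh1AS cannot be told apart.

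Upf1 at the listed genes was compared with that at their neighbours in gene order. None of the 10 listed genes around adh1 (5 on each side) had a higher ratio than adh1 in either culture. Next to it, snp27 was at 0.33 and 0.67 in the asynchronous and the S-phase culture, and SPCC13B11.02c was at 0.17 and 0.13. The 10 neighbours of pdc101 had medians of 0.12 and 0.065 and none reached pdc101, although the adjoining SPAC1F8.08 was at 0.63 in asynchronous cells and at −0.23 in S phase. The neighbours of hxk2 had medians of 0.0024 and −0.13, again with none higher than hxk2. Beside it, stg1 was at 0.32 and −0.24 and the non-coding SPNCRNA.201 at −1.54 and −0.83.

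The S-phase value of adh4 was not shared by the genes around it. The median of its 10 neighbours was 0.079 in asynchronous cells, where 3 of them were higher than adh4, and −0.11 in S phase, where none was. Their median difference between the cultures was −0.13, against 0.77 for adh4. The adjoining genes SPAC5H10.04 and SPAC5H10.07 were at −0.10 and −0.33 in S phase. The gene adh4 is the 36th listed gene from the left end of chromosome I and pdc101 is the 15th. Around hxk1 2 of the 10 neighbours were higher than hxk1 in each culture. One of the adjoining genes is cdc25, which encodes the mitotic inducer whose mutant allele was used for synchrony, at 0.33 and 0.45, and the other is cul3 at −0.095 and −0.38.

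**Figure D4:**
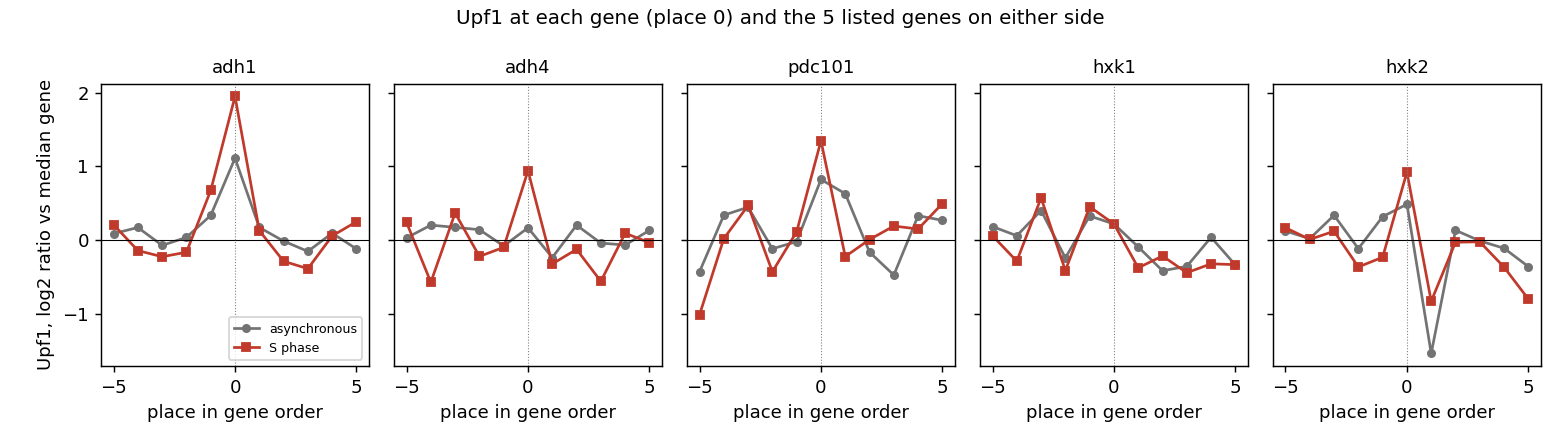
Upf1 (log2 ratio relative to the median gene) at each listed gene, at place 0, and at the 5 listed genes on either side in chromosome order, for the asynchronous (grey circles) and the S-phase culture (red squares). A peak at place 0 is seen for adh1, pdc101 and hxk2 in both cultures, for adh4 in S phase, and not for hxk1.

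Placed along the route from glucose to ethanol, the genes of the set bracket those of glycolysis. Of 11 glycolysis genes 10 had values, and their median log2 Upf1 was 1.13 in asynchronous cells and 1.61 in S phase. In these cultures 9 and 10 of them were past 1.5-fold, against 5.14% and 11.2% of all genes. By the mean of both cultures the highest was tdh1, for glyceraldehyde 3-phosphate dehydrogenase (1.41 and 1.85), and the lowest was pfk1, for phosphofructokinase (0.41 and 0.94). The ratios of adh1 (1.11 and 1.95) were within or just above the range of this list, whose highest S-phase value was 1.92. Those of pdc101 (0.82 and 1.35) lay within its range, and those of hxk2 (0.48 and 0.92) were close to pfk1. Those of hxk1 (0.22 in both cultures) and the asynchronous value of adh4 (0.16) lay below every glycolysis gene with values. With the GC trend removed the median of the glycolysis list fell to 0.41 in asynchronous cells and to 0.81 in S phase.

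Lists of genes of pathways that branch from this route had lower median Upf1 than the values of adh1 and pdc101. This did not hold for the whole set. The values of hxk1 (0.22 in both cultures) and the asynchronous value of adh4 (0.16) lay below the medians of 2 of these lists, pentose phosphate and trehalose and glycerol. The counts past 1.5-fold below stand beside 5.14% of all genes in asynchronous cells and 11.2% in S phase. The 5 genes of the pyruvate dehydrogenase complex, which competes with pyruvate decarboxylase for pyruvate, had medians of 0.18 and 0.32, and 0 and 1 of them passed 1.5-fold. By the mean of both cultures they ran from lat1, for the acetyltransferase subunit (0.32 and 0.72), down to pdx1 (−0.11 and 0.096). The 6 genes of the pentose phosphate pathway, which branches off after hexokinase, had medians of 0.39 and 0.65, with 0 and 3 past 1.5-fold. The highest was tkt1, for transketolase (0.52 and 1.05), and the lowest rpe1 (−0.14 and −0.021). The 6 genes of trehalose and glycerol metabolism had medians of 0.34 and 0.41, with 2 and 1 past 1.5-fold. By the mean of both cultures their ends were the glycerol 3-phosphate dehydrogenase genes gpd1 (0.71 and 1.02) and gpd2 (−0.23 and 0.21). The highest asynchronous value in this list was 0.87, above the 0.82 of pdc101. With the GC trend removed the medians were 0.054 and 0.20 for the pyruvate dehydrogenase complex and 0.17 and 0.39 for the pentose phosphate pathway. Those of trehalose and glycerol metabolism were then 0.14 and 0.12, beside 0.13 and 0.45 for pdc101.

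Among other alcohol and aldehyde dehydrogenase genes, 6 of 8 had values, with medians of 0.043 and 0.097. The aldehyde dehydrogenase gene atd1 was the only one past 1.5-fold, in S phase, where 11.2% of all genes passed. It was at 1.28 there, against 0.55 in asynchronous cells. Its log2 difference between cultures of 0.73 was close to that of adh4. The values of adh8, an alcohol dehydrogenase gene with an RNA level of 8.24 FPKM, were −0.015 and −0.18. Those of fmd1, for formaldehyde dehydrogenase, were 0.053 and 0.087. Those of SPBC21C3.15c were 0.38 and 0.17, those of atd2 −0.12 and 0.11, and those of ssd1 0.034 and −0.083. With the GC trend removed the medians of this list were −0.19 in asynchronous cells and −0.11 in S phase.

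**Figure D5:**
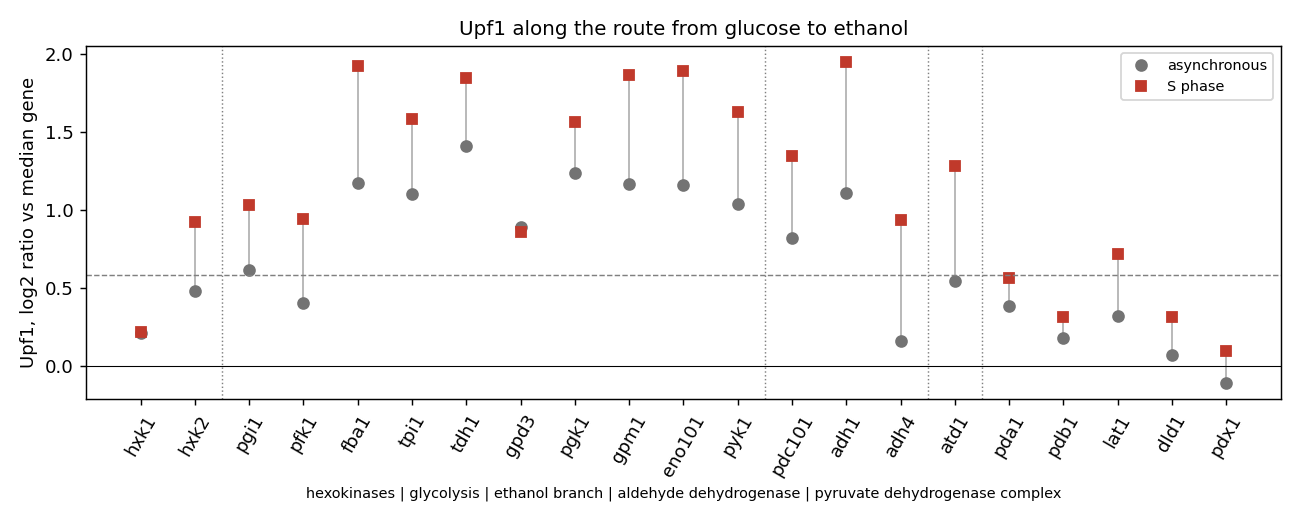
Upf1 (log2 ratio relative to the median gene) at genes ordered along the route from glucose to ethanol, followed by an aldehyde dehydrogenase gene and the pyruvate dehydrogenase complex, for the asynchronous (grey circles) and the S-phase culture (red squares). The dashed line marks 1.5-fold; adh1 reaches 1.95 in S phase, while hxk1, at the entry of the route, stays at 0.22 in both cultures.

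The genes most like each of the 5 were found by distance over the 4 columns, each in units of its standard deviation over genes. Nearest to adh1 were gpm1, for phosphoglycerate mutase, at a distance of 0.80, and pil1, for a component of eisosomes at the plasma membrane, at 0.81. Nearest to pdc101 were tif51, for translation factor eIF5A (0.38), and tef3, for a translation elongation factor (0.45). The genes nearest to hxk2 were sir1, for sulfite reductase (0.30), and pfk1 (0.37). Those nearest to hxk1 were vma2, for a subunit of the vacuolar proton pump (0.20), and por1, for mitochondrial porin (0.21). Nearest to adh4 were adg3 (0.43) and SPCC1739.01 (0.52), which like adh4 were near the median gene in asynchronous cells (0.15 and 0.14) and higher in S phase (0.88 and 0.73).

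Within the set, adh1 was nearest to pdc101, at a distance of 1.78, with 19 genes of the table, adh1 itself included, nearer to adh1. Its counterpart adh4 was 4.56 away, with 611 genes nearer, counted the same way. The hexokinase genes were 2.20 apart, and 2693 genes, hxk1 itself included, were nearer to hxk1 than hxk2 was. In these 4 columns the genes that share a reaction were therefore farther apart than adh1 and pdc101, which carry out successive steps.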

How the data were processed

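Gene signals came from the Affymetrix statistical algorithm, run by the authors on probe intensities. They brought both input arrays to 1 median, took the mean and used it as the denominator for the IP. The deposited Upf1 values are these linear ratios, from the better of the 2 IP arrays made per culture. The deposited Pol II ratio has the same form, from other published arrays. The deposited RNA level is the natural log of (FPKM + 1), a mean of published libraries made by the authors. Its base was taken from the values: FPKM times length in kb summed to 917640 with the natural base and to 177503 with base 2. The genome build and software versions behind the signals are not given in the sources used here.

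Ratios were converted to log2 and centred on the median of 4888 genes, as was the S-phase over asynchronous ratio. Symbols, gene order, overlaps, length and GC content came from RefSeq assembly ASM294v3 (4844 genes matched without regard to case). No coordinates are given because the build is not named. Trends were fitted by lowess with a span of 0.3, for Pol II between its percentiles of 0.5 and 99.5. Coding sequences were searched with BLAST 2.17.0 and proteins aligned with Biopython 1.88, and values were computed with pandas 2.3.3 and statsmodels 0.14.6. The centring, removal of the GC trend and calls between cultures were tested on simulated data with less noise than the spread between these arrays. That test does not show how the calls hold at the spread seen here. The Pol II trend was not tested in this way. The number of arrays limits the precision, and p-values cannot be had. The genes and lists were chosen with earlier results of these data known. Genes named in the text are the set, listed genes of the same enzyme families, the highest and lowest gene of each other list by the mean of both Upf1 columns, the adjoining listed genes and the 2 nearest genes by distance. The zinc genes zrt1 and loz1 fall outside this rule and were chosen after values were seen. Alternatives were another centring, no centring, removal of the GC trend, scaling of the S-phase column, a filter on low RNA levels, a 2-fold threshold and, for Pol II, distance from the trend.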

Additional observations from a re-analysis of the deposited data

Results flagged for a closer look

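Of the 38 named genes, 7 had Upf1 ratios on opposite sides of the median gene in the cultures, as did 23.3% of all genes. None was among the 5 listed genes of fermentation and glucose phosphorylation. With 1 array per culture the differences were not tested. The log2 difference of S phase over asynchronous was −0.86 at SPAC1F8.08 (from 0.63 to −0.23), which adjoins pdc101, and 0.13 at pfl8 (from −0.023 to 0.11) on its other side. It was −0.56 at stg1, which adjoins hxk2. It was 0.44 at gpd2, 0.22 at atd2, 0.19 at pdx1 and −0.12 at ssd1.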

How the results depend on the processing

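No paired analysis was possible because each culture has a single IP array. Without centring, 1 of the 5 genes reached 1.5 in asynchronous cells, where 0.634% of all genes did. In S phase 0 of the 5 did, as did 0 of all genes. All 5 were at least 1.5-fold lower in S phase than in asynchronous cells, as were 4878 of all 4888 genes. The S-phase log2 ratios were then −0.41 at adh1, −1.01 at pdc101, −1.42 at adh4 and −1.44 at hxk2. The ratios of S phase over asynchronous were −1.15 at adh1 and −1.21 at adh4, and S-phase Upf1 relative to Pol II was −0.80 at adh4. The S-phase medians of the glycolysis and pentose phosphate lists were −0.75 and −1.71. Of the 5 pathway lists, 2 then had a median above 0 in asynchronous cells and 0 in S phase, against 5 in each with centring. Relative to Pol II, 2 genes were below 0 in asynchronous cells and 5 in S phase, against 5 and 3 with centring. The share of all genes below 0 was not counted for this measure, so these counts do not set the 5 genes apart. The median ratio over all genes was 0.195 for S-phase Upf1 and 0.547 for Pol II.

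Removal of the GC trend left 0 of 5 genes past 1.5-fold in asynchronous cells (3.24% of all genes) and 2 in S phase (8.2%). The difference of adh1 over adh4 was 0.48 and 0.42 for Upf1 and 0.073 for Pol II, and that of hxk2 over hxk1 was 0.58 for Pol II. Relative to Pol II, 1 gene was then below 0 in asynchronous cells, and pdc101 turned to 0.20, with the share of all genes again not counted. By distance from the Pol II trend 0 of the 5 genes were below it in both cultures, with pdc101 at 0.30 and hxk2 at 0.083 in asynchronous cells. The median distance of the genes fitted is 0 by construction. Scaling of the S-phase ratios left 0 genes past 1.5-fold between cultures (1.82% of all genes were higher), and the S-phase difference of adh1 over adh4 was 0.72. At 2-fold, 1 gene passed in asynchronous cells (0.491% of all genes), 2 in S phase (2.97%) and 0 between cultures (0.634% higher). Centring on the 25% of genes of lowest Pol II put the median of all genes at 0.19 for asynchronous and 0.26 for S-phase Upf1. Then 602 genes were 1.5-fold higher and 57 lower in asynchronous cells (251 and 164 otherwise), 1110 and 152 in S phase (546 and 389), and 285 and 130 between cultures (185 and 197), with 3, 4 and 3 of the 5 genes higher. With the GC trend removed 157 were higher and 60 lower in asynchronous cells, and without centring 31 and 1091, with 0 and 4880 in S phase and 1 and 4878 between cultures. The filter on RNA level moved no value beyond the spread of 0.24 between arrays over all genes. The cause of these changes was not tested.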

Other observations

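Genes tied to zinc were looked up after the values of adh4 had been seen. The zinc transporter gene zrt1, which Loz1 also represses in zinc-replete cells, had log2 Upf1 ratios of 0.17 in asynchronous cells and 0.72 in S phase. Its log2 Pol II ratio was 0.32, with an RNA level of 118 FPKM. Those of adh4 were 0.16 and 0.94, beside a log2 Pol II ratio of 0.25. The loz1 gene itself was at 0.21 and 0.31. No other zinc-responsive gene was examined, and the zinc content of the cultures is not given in the sources used here.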
